A study of Mus musculus with 2 samples.

Results

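Egr1, Egr2, Egr3, Ier2, Ier3, Nr4a1, Dusp5, Btg2, Zfp36 and Myc are serum-induced early genes, transcribed soon after a cell meets serum or a growth factor. These 10 genes, of the 27998 in the matrix, were taken by name and followed in single cells of mouse iPSCs (induced pluripotent stem cells, made by reprogramming somatic cells until they resemble those of the early embryo). Of the 8 that reached a mean of 1 CPM (unique molecular identifiers, or UMIs, per 1000000 in the library), Egr1 was 13.3-fold lower in the library without Srf, Myc was 2.76-fold higher, and the other 6 lay within 0.5 of 0 on the log2 scale. Egr2 had 13 UMIs in wild-type cells and 1 in knockout cells, and Egr3 was not detected.

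The knockout library came from iPSCs with both Srf alleles deleted (SRFΔ/Δ), and the wild-type library from iPSCs with intact floxed alleles (SRFf/f). Both were grown in medium that contains serum, and the labels name no starvation or pulse of serum. The labels name neither the Cre used nor the number of clones or cultures behind a library, and they give no ages, sexes or strains. Each genotype had 1 library, so no test between genotypes was possible, and every difference compares these libraries without a replicate check.

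Cells were kept with at least 1000 detected genes, a mitochondrial share of 1 to 10% and fewer than 5 UMIs summed over the fibroblast genes Col1a2, Col3a1 and Acta2. This left 731 of 1073 knockout cells with 18203451 UMIs and 893 of 954 wild-type cells with 23270714 UMIs, at medians of 24423 and 26656 UMIs a cell. Srf itself had 3 UMIs in the kept knockout cells (0.165 CPM) and 202 in the kept wild-type cells (8.68 CPM), a log2 ratio of -5.50 (95% interval -8.01 to -4.15). Intervals here and below are exact and cover counting error only. All 13 pluripotency genes examined were detected in both libraries, with Pou5f1 at 711.5 and 805.6 CPM. Of these 13, Nanog (log2 ratio -0.70) and Dppa5a (-0.60) were at least 1.5-fold lower in the knockout library and none was as much higher. For comparison, 4.93% of all 11829 genes above 1 CPM were as much lower and 11.8% as much higher. Cells with at least 3 UMIs of 10 primitive endoderm genes made up 18.3% of knockout and 1.34% of wild-type cells. A raised share of chromosome 8 in the UMIs of a cell, over 1.2 times the wild-type median, was seen in 50.5% and 9.85%. Results that move with these cells are given with and without them.

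Serum reaches these genes along known routes. Growth factor receptors activate the kinase ERK, which phosphorylates ternary complex factors such as ELK1, and these bind beside serum response factor (SRF) on a DNA element called the CArG box. A separate route runs through the actin-regulated cofactors of SRF, and CREB, p53 and other factors also act on members of the set. Several of the products feed back on the response: DUSP5 removes phosphate from ERK in the nucleus, and ZFP36 brings short-lived mRNAs to decay.

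Promoter windows from RefSeq (GRCm38.p6, 250 bases before to 50 after a transcript start) were found for 6 of the 10 genes: Egr2, Ier3, Nr4a1, Dusp5, Btg2 and Zfp36. They were searched on both strands for the CArG box and for TGACGTCA, the full CREB element, which do not overlap in any of these windows. The stretches below are shown because they hold a match, in capitals, and each is written 5′ to 3′ on the strand of its gene. Egr2 has several annotated starts, and its windows held different boxes or none.
Egr2, chr10:67537469-67537528, plus strand: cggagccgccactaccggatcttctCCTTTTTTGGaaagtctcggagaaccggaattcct
Egr2, chr10:67537772-67537831, plus strand: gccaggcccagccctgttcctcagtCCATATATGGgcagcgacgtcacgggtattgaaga
Dusp5, chr19:53529038-53529097, plus strand: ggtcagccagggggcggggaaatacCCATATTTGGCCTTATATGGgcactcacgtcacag
Zfp36, chr7:28379267-28379296, minus strand: ccaggccgccCCATAAAAGGagaaagctcc
Btg2, chr1:134079289-134079346, minus strand: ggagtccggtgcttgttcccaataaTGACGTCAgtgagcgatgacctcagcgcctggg

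A CArG box was present in windows of Egr2, Dusp5 and Zfp36, with adjoining boxes in Dusp5, and absent from those of Ier3, Nr4a1 and Btg2. The Egr2 window at chr10:67535249-67535548 held none. Of 32851 windows of this length, 1.63% held a CArG box and 1.79% held TGACGTCA, which among the 6 genes was found for Btg2 alone. Counted by gene, the shares were 1.81% and 2.03% of 27025 genes. A match is a sequence in a window and not a measured site, and elements farther from the start were not searched.

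The full set of levels is plotted by library. Among the 8 genes above 1 CPM, 1 was at least 1.5-fold lower (Egr1) and 1 at least 1.5-fold higher (Myc). Of all 11829 genes at that level, 4.93% were as much lower and 11.8% as much higher in the knockout library. The median log2 ratio was -0.16 over the 8 genes and 0.11 over all genes, whose 10th and 90th percentiles were -0.39 and 0.64. With scaling by TMM or by the median of ratios, respectively, the median of all genes moved to -0.002 and -0.014, and Egr1 and Myc stayed past the threshold.

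**Figure D1:**
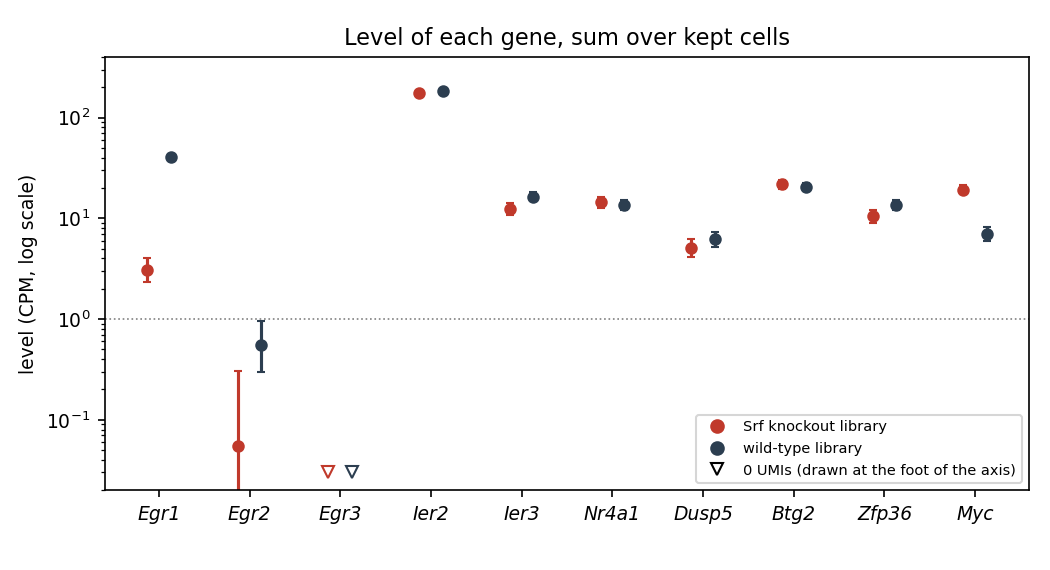
Level of each of the 10 genes (CPM, log axis) in the kept cells of the Srf knockout library (red) and the wild-type library (dark), with exact 95% Poisson intervals of counting error as bars, open triangles for 0 UMIs and a dotted line at 1 CPM. Egr1 lies at 3.08 CPM in the knockout and 41.1 CPM in the wild-type library, Myc lies the other way round at 19.3 and 7.01 CPM, and the points of Ier2 lie at 177.1 and 181.8 CPM.

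The Egr genes encode zinc finger transcription factors that bind a shared GC-rich site. Egr1 (ENSMUSG00000038418, GRCm38 chromosome 18, 34859823 to 34864984, plus strand) had 957 UMIs in wild-type cells, or 41.1 CPM (interval 38.6 to 43.8). In knockout cells it had 56 UMIs, or 3.08 CPM (2.32 to 3.995). The level in knockout cells was far below that in wild-type cells, with a log2 ratio of -3.73 (-4.16 to -3.35). Among the 11829 genes only Srf had a lower ratio.

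Fewer knockout than wild-type cells held Egr1. At counts this low the share of cells with a UMI depends on the level, so it is not a separate finding. Before thinning, 408 wild-type cells (45.7%) and 38 knockout cells (5.20%) held at least 1 UMI. Each cell was then thinned to 10562 UMIs, which left out 70 knockout and 93 wild-type cells that were shallower. At this equal depth Egr1 was found in 248 of 800 wild-type cells (31%, exact binomial interval 27.8 to 34.3) and 17 of 661 knockout cells (2.57%, 1.51 to 4.09). Of the unthinned wild-type cells 188 held 1 UMI, 100 held 2, and 120 held 3 or more, with a maximum of 14. Wild-type cells thus ranged from no detected Egr1 to many copies, while 32 of the 38 knockout cells held a single UMI and 5 held 2.

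The remaining knockout cell held 14 of the 56 Egr1 UMIs. It also carried 44 UMIs of Fos and 50 UMIs of a 10-gene fibroblast list counted without Thy1. It had passed the filter because that uses only 3 fibroblast genes. Over all kept cells the fibroblast list summed to 26.2 CPM in the knockout and 25.5 CPM in the wild-type library, with all 10 genes detected in the first and Lum at 0 in the second. These sums hold the 3 filter genes, and Thy1 at 10.2 and 5.24 CPM. The genes went both ways: of 6 above 1 CPM, 3 were at least 1.5-fold lower and 2 higher. Of all genes above 1 CPM, 4.93% were as much lower and 11.8% as much higher. A 5-gene macrophage list summed to 85.4 and 29.6 CPM, with all 5 genes higher in the knockout library, among them Ccl6 (log2 ratio 1.62) and Lyz2 (1.26). Cells with at least 5 UMIs of the fibroblast list without Thy1, or of the macrophage list, numbered 9 and 12. Without them Egr1 had 40 UMIs in knockout (2.21 CPM) and 940 in wild-type cells (40.8 CPM), and the log2 ratio was -4.19 (-4.70 to -3.75).

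Free RNA in droplets gives UMIs in cells that do not express a gene, and no cell type in these libraries is known to lack Egr1. Srf, deleted in these cells, was found in 3 of the 731 kept knockout cells. The 22 knockout cells removed for their fibroblast genes held 158 UMIs of Egr1 and 14 of Srf. The 722 kept knockout cells under 5 UMIs of the fibroblast list without Thy1, and of the macrophage list, held 40 and 3. The part of free RNA in the knockout level was not tested.

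Egr2 (ENSMUSG00000037868, chromosome 10, 67535475 to 67542188, plus strand) is known for its part in Schwann cells and the hindbrain. It was under the 1 CPM minimum, with 13 UMIs in 10 wild-type cells (0.559 CPM, 0.298 to 0.955) and 1 UMI in 1 knockout cell (0.0549 CPM, 0.00139 to 0.306). The log2 ratio was -2.82 (-8.76 to -0.61). Macrophage-list cells held 4 of the 13 wild-type UMIs, and with fibroblast- and macrophage-list cells left out the ratio was -2.32 with an interval that reached 0 (-8.28 to 0.03). After thinning, Egr2 was found in 3 of 800 wild-type and 0 of 661 knockout cells, and the latter allows a share of up to 0.454% of cells with a UMI at this depth. Such a limit concerns cells with a UMI and not cells that express the gene. A difference in Egr2 outside those cells was not detectable at this depth. Egr3 (ENSMUSG00000033730, chromosome 14, 70077203 to 70082614, plus strand) had 0 UMIs in either library, which allows up to 0.165 CPM (knockout) and 0.129 CPM (wild type), and up to 0.454% and 0.375% of thinned cells with a UMI. Summed over the family, the log2 ratio was -3.72 (-4.15 to -3.35).

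Myc was the member that was higher without Srf. It encodes a transcription factor that drives growth and ribosome production and is one of the classical reprogramming factors. The gene (ENSMUSG00000022346, chromosome 15, 61985391 to 61990374, plus strand) had 163 UMIs in wild-type cells (7.01 CPM, 5.97 to 8.17) and 352 in knockout cells (19.3 CPM, 17.4 to 21.5). The log2 ratio was 1.46 (1.19 to 1.74), and 201 of the 11829 genes had a higher one. After thinning, Myc was found in 8.38% of wild-type cells (6.55 to 10.5) and 16.9% of knockout cells (14.2 to 20).

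Most cells with Myc held few copies. They held on average 1.27 UMIs in the wild-type and 1.46 in the knockout library before thinning, and cells with 3 or more numbered 6 of 893 and 26 of 731. Mycn, a close relative that is also active in pluripotent cells, stood at 64.7 CPM (knockout) and 62.6 CPM (wild type) (log2 ratio 0.05). Of 10 genes of the MYC network, including Mycn, Max and the Mxd genes, 0 were at least 1.5-fold lower and 1 was higher (Mxd1, at 1.65 against 0.859 CPM), with a median log2 ratio of 0.14. Over all 11829 genes 4.93% were as much lower and 11.8% as much higher, so this count is near the share of all genes.

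Nr4a1 encodes NUR77, an orphan nuclear receptor. The gene (ENSMUSG00000023034, chromosome 15, 101254269 to 101274795, plus strand) had 264 UMIs in knockout cells (14.5 CPM) and 318 in wild-type cells (13.7 CPM), a log2 ratio of 0.09 (-0.16 to 0.33). It was found in 12.4% of thinned knockout cells and 13.4% of thinned wild-type cells, and the intervals overlapped. A difference of the size of Egr1 or Myc lies outside this interval. With TMM or median-of-ratios scaling the ratio was -0.02 or -0.03.

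Ier2 encodes a nuclear protein of the early response and was the member found in most cells. The gene (ENSMUSG00000053560, chromosome 8, 84661331 to 84662852, minus strand) had 3223 UMIs in knockout cells (177.1 CPM) and 4231 in wild-type cells (181.8 CPM). The log2 ratio was -0.04 (-0.10 to 0.03). After thinning, 75.6% of knockout and 77.4% of wild-type cells held it, and the maximum in an unthinned cell was 23 and 47 UMIs. In thinned cells the libraries had similar shares of cells at each number of Ier2 UMIs, in contrast to Egr1 (see the plot of UMIs per cell for both).

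**Figure D2:**
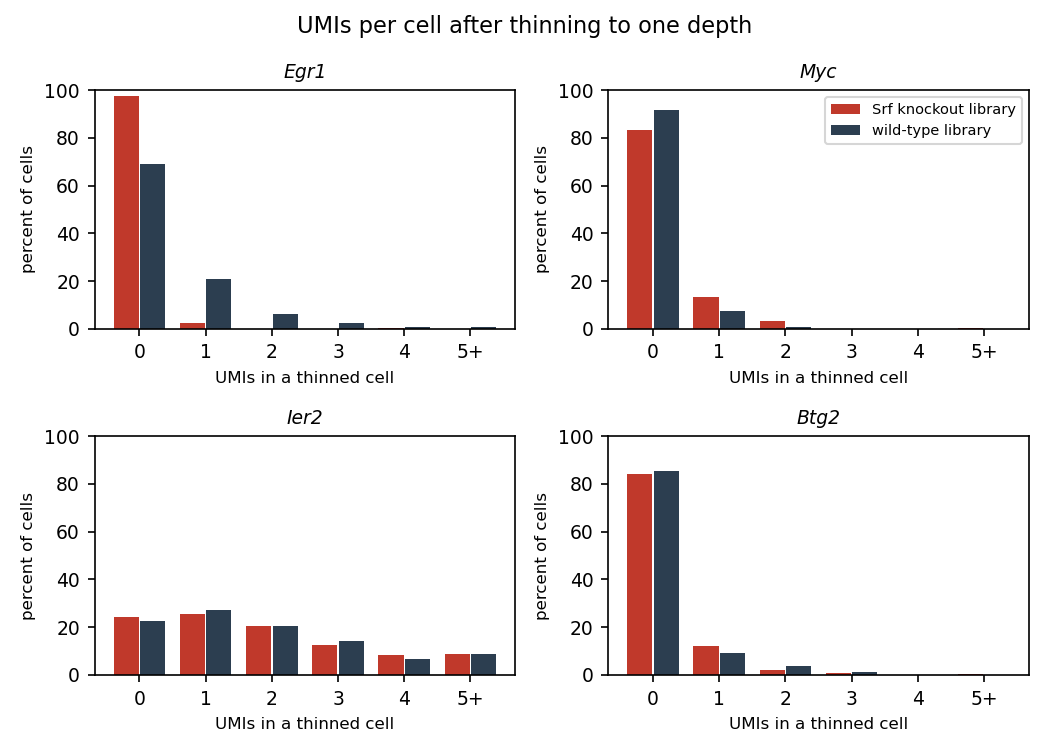
Percent of thinned cells (661 Srf knockout, red, and 800 wild-type, dark) by the number of UMIs of Egr1, Myc, Ier2 and Btg2 in the cell, each cell thinned to 10562 UMIs. Egr1 is at 0 in 97.4% of knockout and 69.0% of wild-type cells and Myc at 0 in 83.1% and 91.6%, while the bars of Ier2 and Btg2 are of similar height in both libraries.

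Ier3 encodes a small protein that acts on ERK signalling and cell survival. The gene (ENSMUSG00000003541, chromosome 17, 35821684 to 35822923, plus strand) had 225 UMIs in knockout cells (12.4 CPM) and 382 in wild-type cells (16.4 CPM), a log2 ratio of -0.41 (-0.65 to -0.17). This was lower beyond counting error but under 1.5-fold, and 9.41% of the 11829 genes had a lower ratio. Thinned shares were 9.68% and 13%, with overlapping intervals (7.54 to 12.2 and 10.7 to 15.5). With cells limited to a mitochondrial share of 1 to 5%, the ratio was -0.12.

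Dusp5, Btg2 and Zfp36 encode inhibitors: a phosphatase of nuclear ERK, an antiproliferative protein that p53 is known to induce, and the mRNA decay protein tristetraprolin. Dusp5 (ENSMUSG00000034765, chromosome 19, 53529109 to 53542431, plus strand) had 93 UMIs in knockout cells (5.11 CPM) and 144 in wild-type cells (6.19 CPM), a log2 ratio of -0.27 (-0.67 to 0.11). Btg2 (ENSMUSG00000020423, chromosome 1, 134075170 to 134079120, minus strand) had 397 UMIs (21.8 CPM) and 477 UMIs (20.5 CPM), a log2 ratio of 0.09 (-0.11 to 0.29). Zfp36 (ENSMUSG00000044786, chromosome 7, 28376784 to 28380253, minus strand) had 191 UMIs (10.5 CPM) and 316 UMIs (13.6 CPM), a log2 ratio of -0.37 (-0.64 to -0.11).

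Of these inhibitors Zfp36 was lower beyond counting error, and the intervals of Dusp5 and Btg2 included 0. All 3 were under 1.5-fold. In thinned cells the shares of knockout and wild-type cells were 5.60% and 6.38% for Dusp5, 15.7% and 14.8% for Btg2, and 10.6% and 11.4% for Zfp36, and the intervals overlapped for each. The sign of Btg2 changed with TMM or median-of-ratios scaling, to -0.02 and -0.03, and without primitive endoderm-list cells, to -0.11 (-0.33 to 0.11). Dusp5 and Zfp36 overlap annotated antisense genes, and whether the counting used strand is not given in the sources used here, so reads of such partners may be included.

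Shares of cells, which depend on the level at such low counts, gave the same division as levels. Among the 8 genes, 1 (Egr1) had a lower share of thinned cells in the knockout library with intervals apart, against 5.02% of all genes, and 1 (Myc) had a higher one, against 10.3%.

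**Figure D3:**
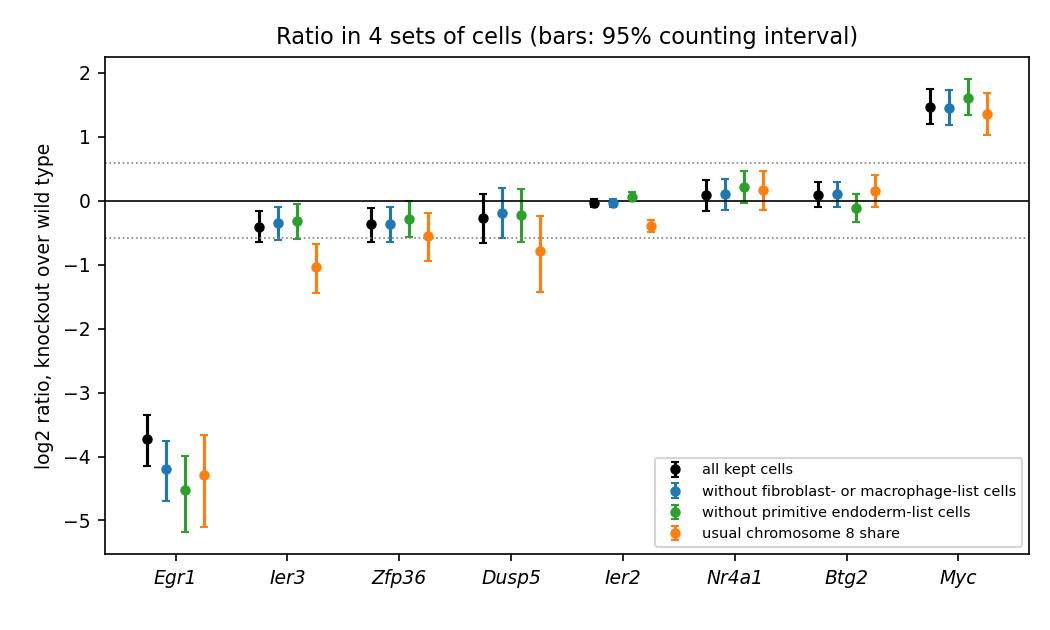
Log2 ratio of knockout over wild type for the 8 genes above 1 CPM in all kept cells (black), without fibroblast- or macrophage-list cells (blue), without primitive endoderm-list cells (green) and in cells without a raised chromosome 8 share (orange), with 95% intervals of counting error and dotted lines at 1.5-fold. Egr1 lies between -4.53 and -3.73 and Myc between 1.36 and 1.61 over the 4 sets, whereas Ier3, Dusp5 and Ier2 move down in the orange set.

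The share of chromosome 8 in a cell moved with several of the small differences. In the 362 knockout and 805 wild-type cells where it was not raised, Ier3 stood at 8.01 CPM (knockout) and 16.6 CPM (wild type), a log2 ratio of -1.04 (-1.44 to -0.67). Dusp5 stood at 3.55 and 6.21 CPM, a ratio of -0.79 (-1.42 to -0.23). In these cells 3 members (Egr1, Ier3 and Dusp5) were therefore at least 1.5-fold lower and 1 (Myc) as much higher. Of the 11936 genes that averaged 1 CPM or more in the same cells, 5.43% were as much lower and 17.4% as much higher. Zfp36 was just under that size, at -0.56 (-0.94 to -0.20), and the ratios of Nr4a1 (0.17) and Btg2 (0.16) had intervals that included 0. In the 369 knockout and 88 wild-type cells with a raised share, the ratios of Ier3 and Dusp5 were 0.10 (-0.42 to 0.69) and 0.08 (-0.74 to 1.07).

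Ier2 lies on chromosome 8 and is 1 of the 1256 genes from which that share was taken. Its level was 134.1 CPM (knockout) and 177.1 CPM (wild type) where the share was not raised, a log2 ratio of -0.40 (-0.50 to -0.31). With the raised share it was 216.7 and 224.7 CPM (-0.05, interval -0.19 to 0.09). Within the knockout library, cells of raised share had more Ier2 than the others (log2 difference 0.69, 0.59 to 0.80), more Ier3 (1.03, 0.62 to 1.46) and more Dusp5 (0.87, 0.24 to 1.56). Without fibroblast- and macrophage-list cells these differences were 0.68 (0.57 to 0.78), 1.05 (0.62 to 1.51) and 0.86 (0.23 to 1.55). That of Egr1 was 0.94 (0.12 to 1.86) over all kept knockout cells and 0.45 (-0.51 to 1.47) without those cells, an interval that includes 0. Within the wild-type library Ier2 was higher as well (0.35, 0.21 to 0.48), and the intervals of Ier3 (-0.68 to 0.37), Dusp5 (-0.95 to 0.76) and Egr1 (-0.48 to 0.17) included 0. Ier3 and Dusp5 lie on other chromosomes, and the part of chromosome 8 in their differences was not tested.

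Cells with primitive endoderm genes differed from the other cells in several members. This lineage forms the yolk sac and can arise in pluripotent cultures. The knockout library held more of each of its 10 marker genes, with summed levels of 404.2 and 14.1 CPM. All 10 were at least 1.5-fold higher, against 11.8% of all 11829 genes above 1 CPM. The log2 ratio was 5.48 for Gata6, a transcription factor gene of the lineage, 4.70 for Dab2, 5.16 for Cubn, 3.99 for Lama1 and 4.90 for Col4a1. The comparison used 128 knockout cells with at least 3 UMIs of the list and 594 with fewer. All had fewer than 5 UMIs of the fibroblast list without Thy1 and fewer than 5 of the macrophage list. Btg2 stood at 35.0 CPM in the first and 18.3 CPM in the second, a log2 difference of 0.94 (0.60 to 1.26). Egr1 was higher in them too, at 4.33 against 1.75 CPM (1.33, 0.26 to 2.30). Myc was lower, at 10.5 against 21.4 CPM (-1.01, -1.58 to -0.51), and so were Ier2 (-0.68, -0.84 to -0.53) and Nr4a1 (-0.58, -1.17 to -0.06).

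Without cells of the primitive endoderm, fibroblast and macrophage lists, the ratios of Myc and Egr1 lay farther from 0 than over all kept cells. The cells left had fewer than 3 UMIs of the primitive endoderm list. They also had fewer than 5 of the fibroblast list without Thy1 and fewer than 5 of the macrophage list. In them Myc was at 21.4 CPM (knockout) and 7.01 CPM (wild type) (log2 ratio 1.61, 1.33 to 1.89). Egr1 was at 1.75 and 40.9 CPM (-4.52, -5.17 to -3.99). Both intervals overlap those of all kept cells (1.19 to 1.74 and -4.16 to -3.35). Leaving out only the fibroblast- and macrophage-list cells gave 1.46 for Myc and -4.19 for Egr1. Only 7 wild-type cells had at least 3 UMIs of the primitive endoderm list and were not fibroblast- or macrophage-list cells. In those 7 cells Btg2 was at 76.1 CPM, above the 19.3 CPM of the other wild-type cells, by 2.02 on the log2 scale (1.19 to 2.67). Nr4a1 was higher in them as well, by 1.52 (0.21 to 2.43), the opposite of its direction in the knockout library. Between the primitive endoderm-list cells of the libraries, Btg2 (-1.16, -1.87 to -0.29), Nr4a1 (-1.88, -2.95 to -0.49), Zfp36 (-1.88, -3.12 to -0.22) and Ier3 (-1.74, -2.87 to -0.24) were lower in the knockout library, from 6 to 17 wild-type UMIs each.

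**Figure D4:**
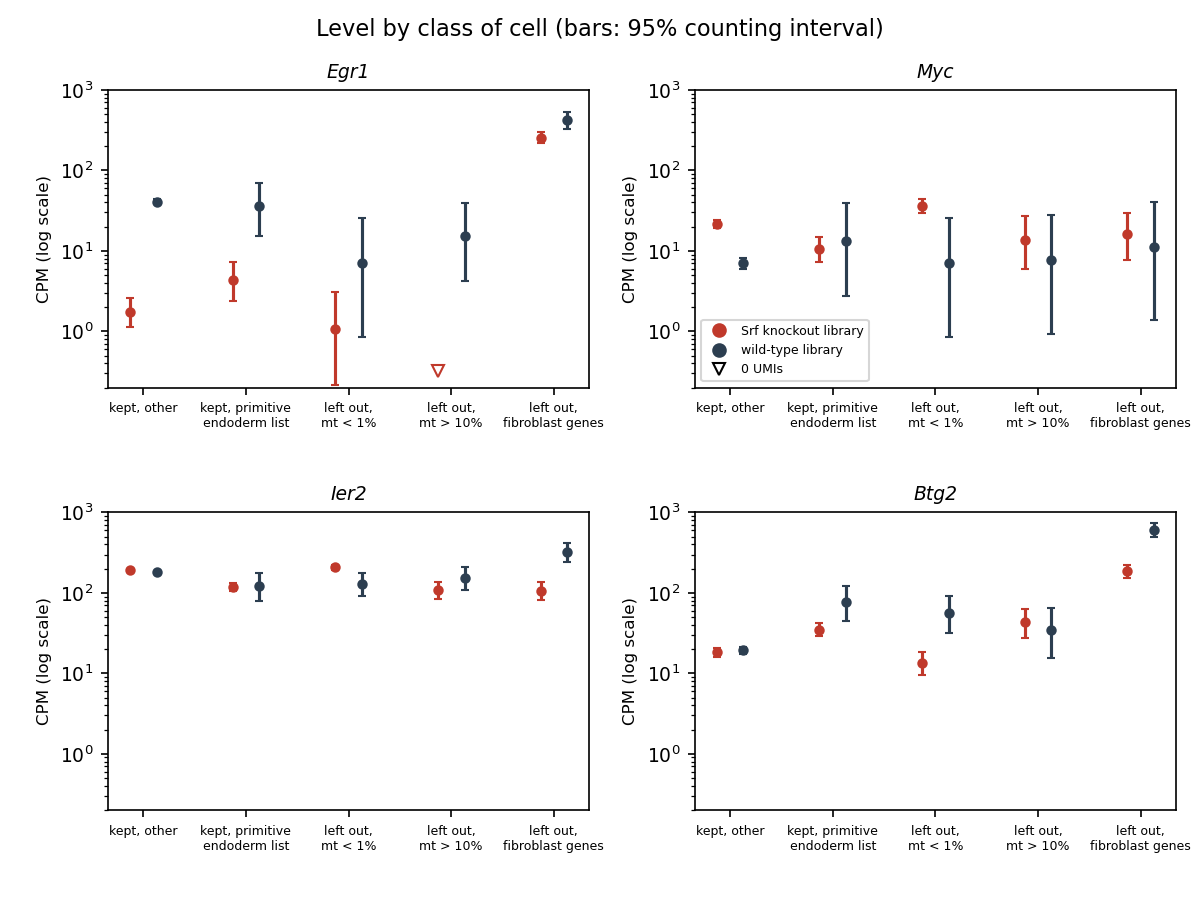
Level (CPM, log axis) of Egr1, Myc, Ier2 and Btg2 by class of cell in the knockout (red) and wild-type (dark) libraries. Bars are 95% intervals of counting error. Kept cells, without fibroblast- and macrophage-list cells, are split into those with fewer than 3 and at least 3 primitive endoderm-list UMIs. The other classes are cells left out for a mitochondrial share under 1%, a share over 10% or fibroblast genes. Egr1 is high in the left-out fibroblast-gene cells of both libraries (254.6 and 418.8 CPM), and Btg2 is higher in primitive endoderm-list cells than in the other kept cells of either library.

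Fibroblast-gene cells, which the filter removed, carried Egr1, Ier3 and Btg2 at higher levels than the kept cells. The 22 knockout and 10 wild-type cells held Egr1 at 254.6 and 418.8 CPM, Ier3 at 261.1 and 577.2 CPM, and Btg2 at 186.9 and 605.5 CPM. Myc was at 16.1 CPM (7.73 to 29.6) and 11.3 CPM (1.37 to 40.9), intervals that include the kept levels. Srf was detected in these cells of both libraries, with 14 and 3 UMIs. With them kept, the log2 ratio of Egr1 was -1.94, that of Ier3 -0.01 and that of Zfp36 -0.02.

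Members found together in a cell were counted in thinned cells and set against the number that independent detection would give. In the wild-type library 27 pairs of members had at least 5 expected cells, and 21 of them were found together more often than expected. The median ratio of found to expected was 1.12 (range 0.607 to 1.86), but 0.937 with cells thinned to 5000 UMIs, and the correlation of detection (phi) ranged from -0.05 to 0.13. In the knockout library 13 of 19 such pairs were above 1, with a median of 1.09 (0.624 to 1.39). These are weak associations over cells of 1 library each, given as a description.

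Zfp36 was in 4 of the 6 pairs with the highest ratios in wild-type cells. Egr1 and Zfp36 were found together in 43 cells against 28.2 expected, and Ier3 and Zfp36 in 21 against 11.8. Dusp5 and Zfp36 were together in 10 cells against 5.80, and Dusp5 and Btg2 in 14 against 7.52. Without fibroblast- and macrophage-list cells these counts were 40 against 26.7, 18 against 10.8, 10 against 5.39 and 12 against 7.12. Egr1 and Ier2 were together in 194 cells against 191.9, that is, as often as independence gives. Btg2 and Myc were together less often than expected in both libraries, in 6 cells against 9.88 in the wild-type and 11 against 17.6 in the knockout library.

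**Figure D5:**
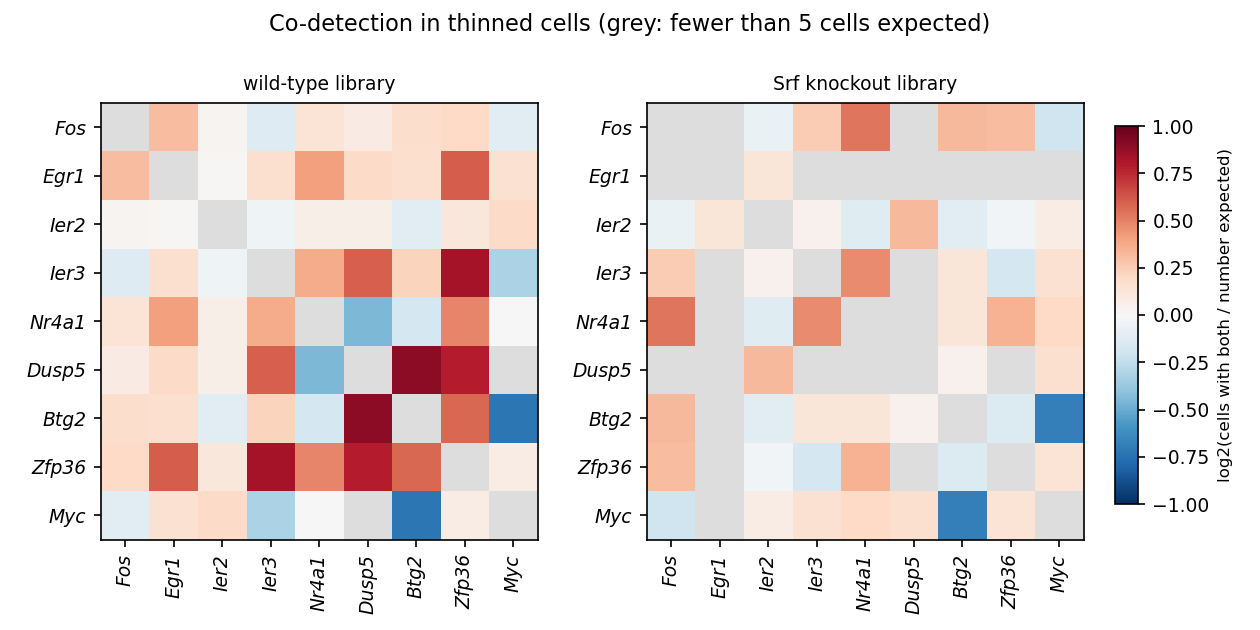
Log2 ratio of thinned cells with both genes over the number expected under independent detection, for pairs of Fos and 8 members, in the wild-type (left) and Srf knockout (right) libraries, with pairs under 5 expected cells in grey. Egr1 has measured pairs with every other gene in wild-type cells (1.52 times the expected with Zfp36) and 1 in knockout cells, where too few cells held it, and the pair of Btg2 and Myc is below 0 in both panels.

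The number of members per thinned cell was 1.76 on average in wild-type and 1.49 in knockout cells. Cells with 4 or more members numbered 54 of 800 wild-type cells (6.75%, 5.11 to 8.72) and 16 of 661 knockout cells (2.42%, 1.39 to 3.90). Without Egr1 and Ier2 the averages were 0.676 and 0.710. Without these genes the averages were thus close to each other.

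Over the 800 thinned wild-type cells, the genes most like Egr1 among 6547 genes were Fos (Pearson r = 0.229 on log2(count + 1)), Jund (0.193), Fosb (0.168), Junb (0.155) and Anapc1 (0.150). Over 661 knockout cells, of which 17 held Egr1, the same pairs gave 0.252, 0.093, 0.143, 0.158 and 0.020. Without fibroblast- and macrophage-list cells Egr1 and Fos gave 0.219 over 791 wild-type and 0.014 over 656 knockout cells, so the knockout value rests on those cells. The knockout values for Jund, Fosb and Junb fell to 0.021, 0.022 and 0.090 without them, and that for Anapc1 was 0.032. Fos and Egr1 were both detected in 329 wild-type and 14 knockout cells before thinning. Ier2 was most like Srsf2 (0.231), Klf2 (0.206) and Tuba1b (0.186). Btg2 was most like Plk2 (0.351), Cdkn1a (0.312) and Mdm2 (0.288), known p53 targets, and in knockout cells these pairs gave 0.204, 0.282 and 0.339. These values share library and depth and are a description over cells.

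Other genes of the response were read from lists. Of all 11829 genes above 1 CPM, 4.93% were at least 1.5-fold lower and 11.8% as much higher. Of 6 genes of SRF and its cofactors, 1 was at least 1.5-fold lower (Srf, the deleted gene) and 1 higher (Elk3, at 4.72 against 2.36 CPM). Their median was -0.05. Of 2 Egr partners above 1 CPM, the corepressor gene Nab1 was higher (log2 ratio 1.03) and Nab2 was at -0.38. Of 8 AP-1 genes 2 were lower and 2 higher, with a median of -0.22. Fos stood at 14.2 CPM (knockout) and 115.1 CPM (wild type) (-3.01, -3.21 to -2.83), and Fosb at 13.2 and 26.5 CPM (-1.0). Jun (-0.57) and Junb (-0.20) were lower by less, while Atf3 (0.97) and Fosl1 (3.06, at 5.16 against 0.602 CPM) were higher.

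Among 36 other serum-induced genes above 1 CPM, 4 were at least 1.5-fold lower and 9 higher, with a median of 0.10, beside 4.93% lower and 11.8% higher among all genes. The lower ones were Cyr61 (-1.37), which encodes a matrix protein, Ctgf (-0.80), Maff (-0.64) and Gadd45b (-0.61). The higher ones included Phlda1 (1.82), the ERK phosphatase gene Dusp4 (1.59), Trib1 (0.99), the kinase genes Plk2 (0.81) and Sgk1 (0.67), and Btg3 (0.66), a relative of Btg2. Of 9 genes that act as feedback on ERK or report its activity, 0 were lower and 3 higher: Dusp4, Spry4 (0.78) and Etv4 (0.77), with a median of 0.48, beside the same 4.93% and 11.8%. Of 9 heat shock genes, which can rise when cells are dissociated, 0 were lower or higher by 1.5-fold, with a median of 0.04.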

How the data were processed

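Whole-number UMI counts per gene and cell, not normalised, were deposited as integer matrices per the file headers, 1 for each of 2 libraries. The submitters' processing notes name Cell Ranger 2.0.0, Seurat 3.1.1 and mm10, without their roles. Counts of kept cells were summed per library and scaled to CPM (per 1000000), and log2 ratios were taken with 0.5 counts added. Called means a ratio of at least 1.5-fold and a mean of at least 1 CPM. Intervals are 95% exact (Poisson, conditional binomial, Clopper-Pearson). A count of 0 allows up to 3 counts. UMI intervals cover counting error only. Shares and co-detection used cells thinned to 10562 UMIs, the 10th percentile (seed 1). Gene positions come from GENCODE M21, which matched 98.7% of gene identifiers. Scrublet in scanpy 1.11.5 called 1 knockout and 2 wild-type doublets (assumed rate 0.8% per 1000 cells). The knockout one failed the filter for cells, and the wild-type ones were kept. With so few calls doublets may remain. The libraries shared 2 barcodes. TMM and median-of-ratios factors came from edgeR 4.0.16. Scripts were tested on simulated data.

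The members and gene lists were chosen with earlier results of these data known. Named were the members, Srf, Fos, Fosb, Jun, Junb, list genes past 1.5-fold with a mean of at least 10 CPM, and for members that averaged 0.2 or more thinned UMIs the 3 genes (5 for Egr1) most correlated with them. Elk3, Nab1, Nab2, Mxd1, Fosl1, Ctgf, Dusp4, Mycn, Pou5f1, Lum, Thy1, T, Eomes and Pax6 were named outside that rule, after their values were seen. Of the remaining marker lists, mesoderm and trophectoderm each had 1 gene lower (T and Krt18), and mesoderm and neuroectoderm each had 1 higher (Eomes and Pax6). In the fibroblast list 3 of 6 genes above 1 CPM were lower and 2 higher. The shares over all genes were 4.93% lower and 11.8% higher.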

Additional observations from a re-analysis of the deposited data

Results flagged for a closer look

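The 244 knockout cells removed only for a mitochondrial share under 1% were compared with the 16 wild-type cells removed on the same ground. Ier2 and Myc were higher in the knockout cells. Ier2 was at 207.8 CPM (interval 191.4 to 225.2) against 129.4 CPM (91.1 to 178.3). Myc was at 35.9 CPM (29.2 to 43.5) against 6.99 CPM (0.85 to 25.3). Both were also above the level of the kept knockout cells, by 0.23 (0.10 to 0.36) and 0.90 (0.56 to 1.21) on the log2 scale. Lower in the knockout cells of the same comparison were Zfp36 (log2 ratio -2.87, -4.70 to -0.83), Nr4a1 (-2.12, -3.32 to -0.67), Btg2 (-2.09, -2.94 to -1.12) and Ier3 (-1.97, -3.33 to -0.26). The share of all genes that differed as much between these removed cells is not given here. The removed knockout cells were shallow, with a median of 8632 UMIs against 16568.5 in the removed wild-type cells, and the part of depth was not tested.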

How the results depend on the processing

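No paired analysis was possible because there is 1 library per genotype. In all, 24 alternative settings were run, and causes were not tested unless stated. The count of members at least 1.5-fold higher stayed at 1 under its 20 alternatives. The count lower, 1, became 2 with no minimum level, where Egr2 enters by construction, and 3 with the usual chromosome 8 share only. The median of the members, -0.16, moved beyond its counting error once, to -0.48 with the usual chromosome 8 share. The ratio of summed Egr1, Egr2 and Egr3, -3.72, became -1.92 with no limit on Col1a2, Col3a1 and Acta2, and -4.49 without primitive endoderm-list cells. It became -4.24 with the usual chromosome 8 share. Without fibroblast- or macrophage-list cells, a setting chosen after seeing the data, it became -4.17. The count of members with a lower share of cells, 1, became 2 with at least 2000 genes, 2 with the usual chromosome 8 share and 2 with no thinning. Median co-detection in wild-type cells, 1.12, became 0.937 when cells were thinned to 5000 UMIs. Of 153 values of single genes under alternatives, 139 stayed within their counting interval, and 0 that were called changed sign. Depth leaves Egr2 and Egr3 undecided and leaves Egr1 with 1 measurable pair in knockout cells.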

Other observations

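Egr4, a member of the Egr family outside the 10 genes and singled out after its values were seen, went the other way from Egr1. It was under the 1 CPM minimum, with 13 UMIs in knockout cells (0.714 CPM) and 4 in wild-type cells (0.172 CPM), a log2 ratio of 1.94 (0.36 to 4.13).

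In the 244 knockout cells removed for a mitochondrial share under 1%, several members stood below the kept knockout cells. The log2 difference was -2.00 (-3.43 to -1.02) for Zfp36, -1.09 (-1.97 to -0.41) for Ier3, -1.08 (-1.87 to -0.45) for Nr4a1 and -0.69 (-1.23 to -0.23) for Btg2. Egr1 had 3 UMIs there (1.06 CPM). In the 16 wild-type cells of the same class Btg2 was above the kept wild-type cells, by 1.49 (0.63 to 2.16).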
